A study of Mus musculus with 6 samples.

Results

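The immunoglobulin genes described here were the 155 gene columns, of 18122 in the table, whose symbols name a heavy (Igh), kappa (Igk) or lambda (Igl) variable or constant gene. They comprised 73 heavy variable genes, 5 heavy constant genes (Ighm, Igha, Ighg1, Ighg2b and Ighg3), 70 kappa variable genes, the kappa constant gene Igkc, 3 lambda variable genes and 3 lambda constant genes. The symbols were the only criterion, and no measured value was used. All 155 had an entry in GENCODE M21 (GRCm38), which placed the heavy genes on chromosome 12, the kappa genes on chromosome 6 and the lambda genes on chromosome 16, and annotated 7 of the variable genes as pseudogenes.

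An antibody is built of paired heavy and light chains, and in a mouse the light chain is either kappa or lambda. During B cell development a variable segment is joined to short joining segments, and in the heavy chain also to a diversity segment, and splicing attaches the result to a constant region. The heavy constant gene sets the class, with IgM from Ighm made first and IgA and the IgG subclasses made after class switching. The variable segments set the antigen binding site. Group 2 innate lymphoid cells (ILC2s) are lymphocytes known for releasing type 2 cytokines, and they are defined as cells without rearranged antigen receptors.

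RNA came from ILC2s that had been sorted from mouse lung and cultured, with 3 libraries per genotype. The wild-type (WT) libraries carry the genotype label BALB/C BYJ, and the ICOS KO libraries carry the label C.129S4-Icostm1Shr/J, a line in which Icos, which encodes a co-stimulatory receptor, was targeted. Strain and Icos allele went together, so their effects cannot be told apart. Each genotype had 3 libraries, and all entered the comparison, although the submitters' design note mentions duplicates. Sex and age are not in the labels, nor is it said that each library stands for its own mouse or culture. The p-values thus refer to scatter among these libraries only, and part of that scatter may be technical.

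The table gave estimated counts per gene, with library totals from 13738062 to 18736474, and complementary DNA had been made from 10 pg of RNA per library. Levels are CPM, counts scaled to the size of each library, after TMM normalisation, and a floor of 3 counts corresponded to 0.157 to 0.225 CPM in a single library. Icos itself measured 434.3, 462.2 and 501.7 CPM in WT and 139.9, 170.2 and 161.4 CPM in ICOS KO. The library ICOS KO 2 had the lowest correlations with the others (Pearson r of log2 CPM across genes from 0.948 to 0.965, other pairs from 0.958 to 0.979). Of 15 ILC2 marker genes all were tested, and their summed level was 11710 to 12900 CPM in WT and 12310 to 13090 CPM in ICOS KO. A gene was called when the adjusted p of edgeR's quasi-likelihood test, over all 13691 genes tested, was under 0.05.

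The results below turn on a few variable segments. The 3′ ends of these are shown because the last bases, from the codon of the conserved cysteine onward, are the germline contribution of each segment to the third complementarity-determining region, the most variable part of the binding site. Capitals mark the cysteine codon and all bases after it. Each line gives the last 60 bases of the GENCODE M21 transcript, 5′ to 3′ on the gene's own strand, with GRCm38 coordinates. These are bases of the reference strain, and the BALB/c sequences were not examined.
Ighv11-2, chr12:114048241-114048300, minus strand: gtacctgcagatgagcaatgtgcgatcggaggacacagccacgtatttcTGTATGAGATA
Ighv11-1, chr12:113981879-113981938, minus strand: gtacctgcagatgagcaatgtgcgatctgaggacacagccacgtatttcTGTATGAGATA
Ighv12-3, chr12:114366521-114366580, minus strand: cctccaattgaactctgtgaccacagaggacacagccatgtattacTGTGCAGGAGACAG
Ighv2-3, chr12:113611187-113611246, minus strand: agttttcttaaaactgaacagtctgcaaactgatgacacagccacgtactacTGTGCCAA
Igkv14-126, chr6:67896583-67896642, plus strand: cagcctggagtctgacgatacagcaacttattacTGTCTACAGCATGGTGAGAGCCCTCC
Igkv4-91, chr6:68768555-68768614, minus strand: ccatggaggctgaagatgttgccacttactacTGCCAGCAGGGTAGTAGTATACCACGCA
Igkv1-135, chr6:67610449-67610508, plus strand: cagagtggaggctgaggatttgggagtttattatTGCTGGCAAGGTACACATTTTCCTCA
Igkv3-2, chr6:70699008-70699067, plus strand: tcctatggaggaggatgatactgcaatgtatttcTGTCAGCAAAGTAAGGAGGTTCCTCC
Iglv1, chr16:19085017-19085076, minus strand: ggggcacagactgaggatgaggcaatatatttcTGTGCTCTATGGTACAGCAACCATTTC
Ighv11-2 and Ighv11-1 share all bases in capitals. Over the 353 bases of the shorter transcript these 2 genes differed at 4 positions (98.9% identity).

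Immunoglobulin transcripts were found in every library and had a higher summed level in ICOS KO. The 155 genes summed to 2548, 2063 and 3197 CPM in WT and to 3745, 3897 and 3848 CPM in ICOS KO. The lowest ICOS KO library lay above the highest WT library, and the WT libraries were spread more widely (2603 ± 569 CPM in WT and 3830 ± 77.3 CPM in ICOS KO, SD, n = 3 each). The ratio of the means was 1.47, and no p is given for a sum over the chosen genes. These genes took 0.209% to 0.326% of all counts in WT and 0.372% to 0.377% in ICOS KO. In bulk RNA, fewer cells of a type and less RNA per cell cannot be told apart.

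Each class of genes had a higher sum in CPM in every ICOS KO library than in any WT library. For kappa variable genes the margin was slight, with 516.7 CPM in WT 3 and 522.6 CPM in ICOS KO 1. As a percentage of all counts these libraries stood in the other order, at 0.05263% and 0.05206%, so this separation depended on the scaling. The ratio of the means was 1.32 for heavy constant, 1.39 for heavy variable, 1.54 for kappa variable and 1.58 for kappa constant genes. Both lambda classes had larger ratios, 2.0 for variable and 1.98 for constant genes. Lambda constant genes summed to 57.7, 69.6 and 90.1 CPM in WT and to 202.5, 113.7 and 113.3 CPM in ICOS KO, so ICOS KO 1 stood well above the other libraries. The ratio of the variable to the constant level, both per kilobase of exon, was nearly level across libraries for kappa genes (0.681 to 0.719). It ranged from 0.448 to 0.532 for heavy and from 0.927 to 1.09 for lambda genes, with overlap between genotypes. The means were 0.458 ± 0.00584 in WT and 0.487 ± 0.0425 in ICOS KO for heavy genes, and 0.707 ± 0.0105 and 0.693 ± 0.0111 for kappa genes. For lambda genes they were 0.993 ± 0.0738 and 1.05 ± 0.0488 (SD, n = 3 each).

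Of the 155 genes, 80 passed the filter on low counts, and edgeR called 9 of these higher and 3 lower in ICOS KO. Over all genes tested, 3.29% were called (1.29% higher and 2.01% lower), against 12 of 80 (15.0%) among immunoglobulin genes. A gene seen in a single genotype passes the filter only through that genotype, so this share is a description. Without the filter, 8 of 155 were called higher and 4 lower (7.74%), against 2.12% of all 18122 genes. DESeq2 called 11 higher and 4 lower (6.79% of all genes tested) and limma voom 8 higher and 1 lower (3.09%). With variable genes summed by family, 7 of 37 families and other members were called higher and 1 lower (3.41% of all rows tested). The median log2 fold change of the 80 was 0.44, with 48 positive and 32 negative, and that of all genes tested was -0.00353. In 22 of the 80 every ICOS KO library was higher than every WT library and in 4 every one was lower, against 11.9% and 12.5% of all genes tested. Libraries of the genotypes were thus apart in 26 of 80, and in 24.4% of all genes tested. Over all 155 genes without the filter the counts were 27 higher (17.4%) and 5 lower (3.23%), against 10.3% and 11.0% of all 18122 genes.

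**Figure D1:**
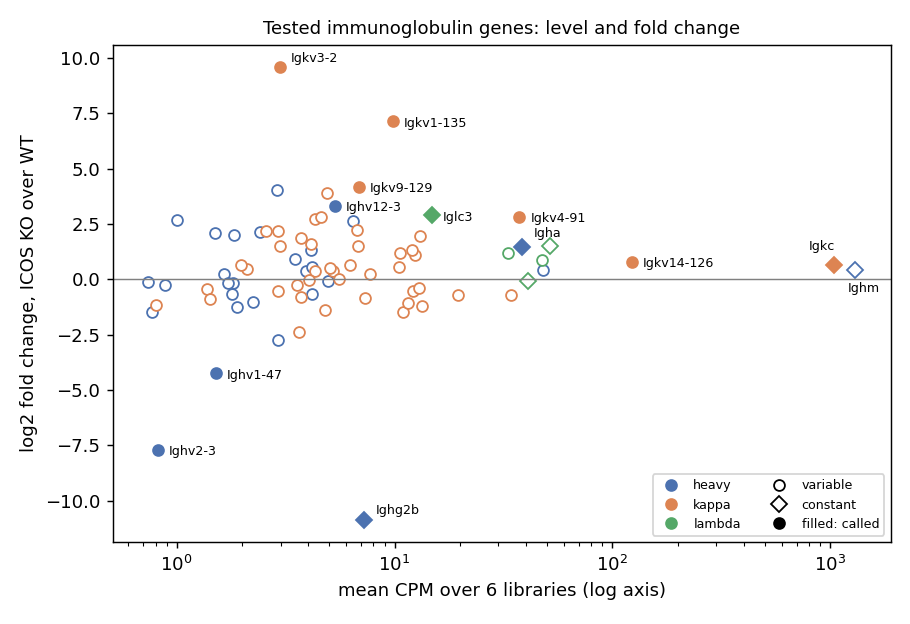
Log2 fold change of ICOS KO over WT (y axis) against mean CPM over the 6 libraries (x axis, log scale) for the 80 tested immunoglobulin genes; colours give the chain, circles variable and diamonds constant genes, and filled symbols the 12 called. Fold changes of Igkv3-2, Ighg2b and Ighv2-3, which had 0 counts in every library of a genotype, depend on the prior count; Igkc and Ighm lie far to the right of all other genes.

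The spread between libraries of a genotype was wide for these genes. The median biological coefficient of variation, the replicate scatter that edgeR estimates beyond counting error, was 76.0% over the 80 and 16.1% over all genes tested. It was 55.9% for heavy variable, 85.3% for kappa variable and 32.2% for all constant genes. Ighv11-2 had the lowest value of the 80, 11.2%.

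Ighm, which encodes the constant region of IgM (chr12:113418558-113422730, minus strand), was the most abundant heavy constant gene in every library. It measured 1139, 883 and 1339 CPM in WT and 1490, 1485 and 1471 CPM in ICOS KO. The libraries did not overlap, but the difference did not pass the test (log2 fold change 0.40 ± 0.12, SE; edgeR adjusted p = 0.109). It passed with DESeq2 (adjusted p = 0.0375) and when WT 3 was left out (edgeR adjusted p = 0.0313). Ighm held 93.4% to 98.5% of heavy constant counts, with means of 96.0% ± 2.54 in WT and 96.2% ± 2.32 in ICOS KO (SD, n = 3 each).

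The class-switched heavy genes differed widely between libraries of a genotype. Igha, the constant region of IgA (chr12:113254830-113260236), measured 19.3, 25.2 and 17.8 CPM in WT and 95.5, 27.3 and 46.9 CPM in ICOS KO. ICOS KO 2 lay just above the highest WT library, and the 2.72-fold rise passed narrowly (edgeR adjusted p = 0.0472). The call was lost in 9 of 13 alternatives, with an edgeR adjusted p of 0.184 without WT 1, 0.122 without WT 2, 0.120 without WT 3, 0.0541 without ICOS KO 1 and 0.118 without ICOS KO 3. Without ICOS KO 1 the ratio fell to 1.79-fold.

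Ighg2b, the constant region of IgG2b (chr12:113302965-113307933), had 482, 310 and 32 counts in WT and 0 in each ICOS KO library. The WT levels were 25.3, 16.3 and 2.10 CPM, so Ighg2b was at least 205-fold lower in ICOS KO against a floor of 3 counts over that group (edgeR adjusted p = 0.00444), and at least 130-fold lower without WT 1 or without ICOS KO 1. With limma voom it did not pass (adjusted p = 0.0711). Here and below, bounds against the floor are in reads, which after PCR amplification were not independent molecules. They do not bound the RNA present. Ighg1, the constant region of IgG1, had 392 counts in WT 2 (20.6 CPM) and 0 in the other 5 libraries. Ighg3, the constant region of IgG3, reached 5.36 CPM in ICOS KO 1 and at most 0.721 CPM elsewhere. Neither Ighg1 nor Ighg3 passed the filter, so no test was made. The highest library was ICOS KO 1 for Igha and Ighg3, WT 1 for Ighg2b and WT 2 for Ighg1.

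**Figure D2:**
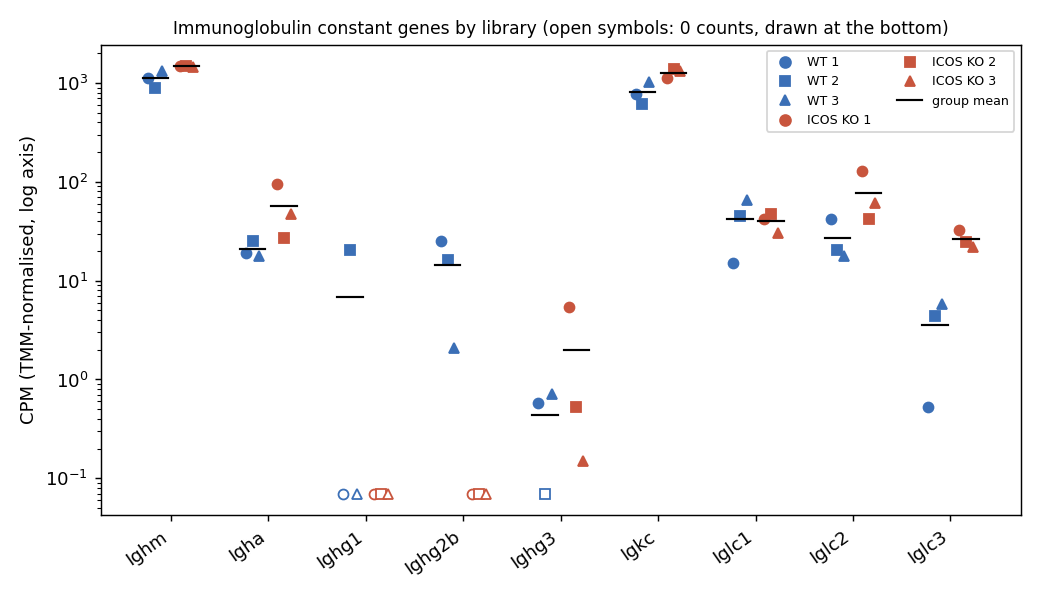
CPM (y axis, log scale) of the 9 immunoglobulin constant genes in each library, with lines for group means; open symbols are libraries with 0 counts, drawn at the bottom of the axis. Ighm and Igkc are high in all 6 libraries, Ighg1 has counts in WT 2 alone, and Ighg2b has counts in the 3 WT libraries alone.

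Igkc, the single kappa constant gene (chr6:70726435-70726966), measured 775, 609 and 1037 CPM in WT and 1116, 1377 and 1335 CPM in ICOS KO. No ICOS KO library fell to the WT range, and the rise was 1.58-fold (log2 fold change 0.66 ± 0.16, SE; edgeR adjusted p = 0.0475). The call was lost in 6 of 13 alternatives, with an edgeR adjusted p of 0.187 without WT 1, 0.176 without WT 2, 0.119 without ICOS KO 2 and 0.191 without ICOS KO 3. Per kilobase of exon, Igkc stood at 1517 CPM in WT and 2398 CPM in ICOS KO, and Ighm at 594 and 786 CPM. Igkc held 84.6% to 93.1% of light-chain constant counts. Ighm and Igkc put the WT libraries in the same order, WT 2 lowest and WT 3 highest.

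The lambda constant genes did not move together. Iglc3 (chr16:19065230-19065681) measured 0.524, 4.36 and 5.84 CPM in WT and 32.2, 24.4 and 21.8 CPM in ICOS KO, a 7.31-fold rise (edgeR adjusted p = 0.0102) that was called in all 13 alternatives. Iglc2 (chr16:19198396-19200351) measured 42.1, 20.2 and 18.0 CPM in WT and 127.8, 42.0 and 60.9 CPM in ICOS KO. WT 1 and ICOS KO 2 overlapped slightly, and the difference did not pass (edgeR adjusted p = 0.0609), though it did without WT 1 (0.0298, edgeR) and without ICOS KO 2 (0.0214, edgeR). Iglc1 (chr16:19061618-19062071) measured 15.1, 45.0 and 66.4 CPM in WT and 42.5, 47.3 and 30.7 CPM in ICOS KO, with full overlap and no call (edgeR adjusted p = 0.942). Its sign changed in 4 alternatives. Iglc2 and Iglc3 were 96.0% identical over 300 bases and Iglc1 was 74.3% and 75.3% identical to them, so counts of Iglc2 and Iglc3 are uncertain where reads were split.

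The lambda variable genes are joined to particular constant genes, Iglv1 chiefly to Iglc1 or Iglc3 and Iglv2 chiefly to Iglc2. Iglv1 measured 17.8, 42.7 and 39.2 CPM in WT and 68.2, 63.3 and 53.4 CPM in ICOS KO, without overlap but without a call (edgeR adjusted p = 0.0900; DESeq2 adjusted p = 0.00661). Iglv2 measured 23.8, 10.7 and 26.8 CPM in WT and 72.6, 29.1 and 35.7 CPM in ICOS KO (edgeR adjusted p = 0.106). WT 1 had the lowest Iglv1, Iglc1 and Iglc3 of all libraries, and ICOS KO 1 had the highest Iglv2 and Iglc2. Iglv1 and Iglv2 were 97.5% identical over 280 bases. Iglv3 stayed at or below 0.902 CPM and was not tested.

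A single heavy and a single kappa segment led the variable genes in all 6 libraries. Ighv11-2 held 33.0%, 42.8% and 36.4% of heavy variable counts in WT and 31.7%, 38.9% and 37.1% in ICOS KO. Igkv14-126 held 22.4%, 28.3% and 19.9% of kappa variable counts in WT and 23.1%, 29.6% and 24.3% in ICOS KO. The widest exact 95% binomial interval among these was 40.5% to 45.2%, and such intervals cover counting error only. Both shares overlapped between genotypes, with means of 37.4% ± 4.98 and 35.9% ± 3.78 for Ighv11-2 and of 23.5% ± 4.35 and 25.6% ± 3.48 for Igkv14-126 (WT and ICOS KO, SD, n = 3 each). Each was also the highest per kilobase of its chain in all 6 libraries. An antibody of these 2 segments is a known product of B-1 cells, a self-renewing B cell type of the body cavities, and binds phosphatidylcholine.

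In level, every ICOS KO library lay above every WT library for both genes. Ighv11-2 (chr12:114048241-114048812) measured 37.8, 39.0 and 46.4 CPM in WT and 54.4, 54.7 and 55.9 CPM in ICOS KO, without overlap, and did not pass with edgeR (log2 fold change 0.42 ± 0.12, SE; adjusted p = 0.0921), though it did with DESeq2 (adjusted p = 0.0312). Igkv14-126 (chr6:67896172-67896642) measured 83.6, 83.5 and 102.6 CPM in WT and 120.6, 195.3 and 155.5 CPM in ICOS KO, a 1.75-fold rise (log2 fold change 0.81 ± 0.16, SE; edgeR adjusted p = 0.0185). That call was lost without WT 1 (0.10, edgeR), without WT 2 (0.120, edgeR) and without ICOS KO 3 (0.0854, edgeR). The close copy Ighv11-1 stayed between 1.05 and 2.52 CPM, and the counts of both Ighv11 genes were not whole in any library, so their division is uncertain.

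A second pair of segments overlapped between genotypes neither in share nor in level. Ighv12-3 with Igkv4-91 is the other heavy and kappa pair known from B-1 cell antibodies to phosphatidylcholine. Ighv12-3 (chr12:114366521-114366954) measured 2.26, 0 and 0.590 CPM in WT and 8.53, 11.7 and 9.06 CPM in ICOS KO. Every ICOS KO library was above the WT range, with a 10.3-fold difference between means (edgeR adjusted p = 0.0322). The ratio was 33.0-fold without WT 1 and 6.85-fold without WT 2. The call was lost with DESeq2 (adjusted p = 0.147) and, with edgeR, without WT 3 (0.0904), without ICOS KO 2 (0.0801) and without ICOS KO 3 (0.118).

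Igkv4-91 (chr6:68768555-68769103) measured 11.1, 3.47 and 13.1 CPM in WT and 47.8, 80.7 and 68.5 CPM in ICOS KO. The lowest ICOS KO library was above 3 times the highest WT library, and the 7.11-fold rise (log2 fold change 2.84 ± 0.37, SE; edgeR adjusted p = 0.00133) was called in all 13 alternatives. As shares, which were not tested, Ighv12-3 held 0.810% ± 1.03 of heavy variable counts in WT and 6.42% ± 1.70 in ICOS KO, and Igkv4-91 held 2.23% ± 0.936 and 10.7% ± 1.54 of kappa variable counts (SD, n = 3 each). Igkv4-91 was the second kappa gene in all 3 ICOS KO libraries, and Ighv12-3 was the second heavy gene in ICOS KO 2 and ICOS KO 3. WT 2 had the lowest value of both genes and ICOS KO 2 the highest of both. WT 1 was above WT 3 for Ighv12-3 and below it for Igkv4-91. Bulk RNA does not show which heavy and kappa chains were paired in a cell. The nearest copy of Ighv12-3 was 79.3% identical over 280 bases and that of Igkv4-91 87.9% identical, and the counts of both were whole in every library.

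**Figure D3:**
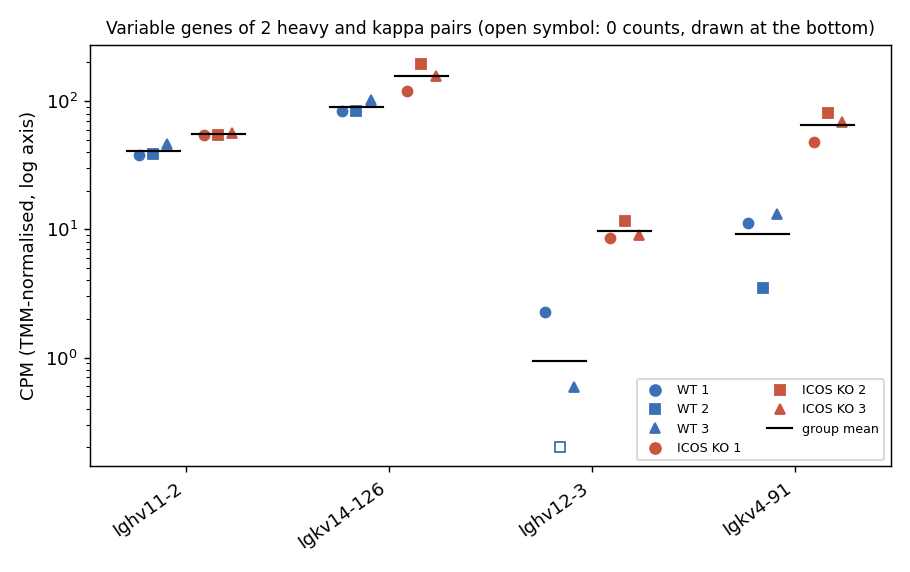
CPM (y axis, log scale) of Ighv11-2, Igkv14-126, Ighv12-3 and Igkv4-91 in each library, with lines for group means; the open symbol is WT 2, with 0 counts of Ighv12-3. For each gene all ICOS KO libraries lie above all WT libraries, by 1.34-fold in the mean for Ighv11-2 and by 7.11-fold for Igkv4-91.

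Of the 45 kappa variable genes tested, 17 had a negative log2 fold change. An unadjusted edgeR p under 0.05, in either direction, was found for 14, against 2718 of all 13691 genes tested. By the call, 5 were higher and none lower, against 1.29% and 2.01% of all genes tested. Besides Igkv14-126 and Igkv4-91 these were Igkv1-135, Igkv3-2 and Igkv9-129, each with 0 counts in at least 2 WT libraries. Igkv1-135 (chr6:67609713-67610508) had 0, 7 and 0 counts in WT and 535, 220 and 101 in ICOS KO. Its level was 34.6, 16.5 and 7.5 CPM in ICOS KO, and all its alternatives kept the call (edgeR adjusted p = 0.000596). The ratio of means, 159-fold, rested on the 7 counts of WT 2, was 106-fold without WT 1 or without WT 3, 97.9-fold without ICOS KO 1, and at least 223-fold without WT 2.

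Igkv3-2 (chr6:70698449-70699067) had 0 counts in each WT library and 242, 12 and 19 in ICOS KO. It was at least 106-fold higher against a floor of 3 counts over WT (edgeR adjusted p = 0.0223), and at least 20.6-fold higher without ICOS KO 1, which held most of its counts. The bound was 68.3-fold without WT 1 and 68.4-fold without WT 2. Igkv3-2 had an adjusted p in 11 of 13 alternatives. The call was lost in 3 of these, without WT 1 (0.0754, edgeR), WT 2 (0.0936, edgeR) or WT 3 (0.0607, edgeR). Igkv9-129 (chr6:67839793-67840266) measured 2.05, 0 and 0 CPM in WT and 8.46, 15.3 and 15.4 CPM in ICOS KO (edgeR adjusted p = 0.0239). Its ratio was 19.2-fold, 12.8-fold without WT 2 or WT 3, and at least 149-fold without WT 1. The call was lost with DESeq2 (adjusted p = 0.266) and, with edgeR, without WT 2 (0.0660), WT 3 (0.0514), ICOS KO 2 (0.0605) or ICOS KO 3 (0.121). Igkv6-32, not tested after the filter, had 0 counts in WT and 4, 180 and 83 in ICOS KO.

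Abundant kappa genes without a call differed widely among libraries of a genotype. Igkv8-30 measured 71.0, 27.5 and 29.6 CPM in WT and 35.9, 25.0 and 16.3 CPM in ICOS KO (edgeR adjusted p = 0.275). Igkv1-110 measured 25.1, 11.3 and 37.0 CPM in WT and 11.6, 0.150 and 32.4 CPM in ICOS KO (edgeR adjusted p = 0.643). WT 1 was highest for the former and ICOS KO 2 nearly lacked the latter, and the genotypes overlapped for both. Igkv16-104 was lower in every ICOS KO library, with 23.7, 14.0 and 10.6 CPM in WT above 5.55, 2.71 and 8.91 CPM in ICOS KO (edgeR adjusted p = 0.0646).

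Of the 26 heavy variable genes tested, 1 was called higher (Ighv12-3) and 2 lower, against 1.29% and 2.01% of all genes tested. Ighv2-3 (chr12:113611187-113611617) had 23, 42 and 23 counts in WT and 0 in each ICOS KO library. Its WT levels were 1.21, 2.21 and 1.51 CPM, so it was at least 23.1-fold lower in ICOS KO (edgeR adjusted p = 0.00554), and called in all 13 alternatives. The bound was at least 14.6-fold without ICOS KO 1. Ighv1-47 (chr12:114991108-114991580) measured 2.52, 0.736 and 5.38 CPM in WT and 0.129, 0.226 and 0.0742 CPM in ICOS KO, where it had at most 3 counts. It was 20.1-fold lower (edgeR adjusted p = 0.0169) and 11.4-fold lower without WT 3. Ighv1-47 had an adjusted p in 12 of 13 alternatives. Its call was lost with limma voom (adjusted p = 0.117) and, with edgeR, without WT 1 (0.0543), WT 3 (0.0706) or ICOS KO 3 (0.101).

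Ighv7-3, under the filter, showed a like pattern to Ighv2-3, with 64, 62 and 7 counts in WT and 1, 0 and 0 in ICOS KO. Ighv4-2, annotated as a pseudogene in the reference, measured 2.20, 3.05 and 0 CPM in WT and 16.0, 8.57 and 8.91 CPM in ICOS KO. Its libraries did not overlap, and it did not pass (edgeR adjusted p = 0.0683; 0.0181 without WT 3). Its nearest copy, Ighv4-1, was 95.7% identical, and Ighv4-2 had counts that were not whole in 5 libraries. Ighv5-4 was the second heavy gene of WT 1, at 11.9 CPM, and reached at most 3.26 CPM elsewhere. Ighv2-9 and Ighv9-3, among the 3 most abundant heavy variable genes of WT, overlapped between genotypes (edgeR adjusted p = 0.913 and 0.697).

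**Figure D4:**
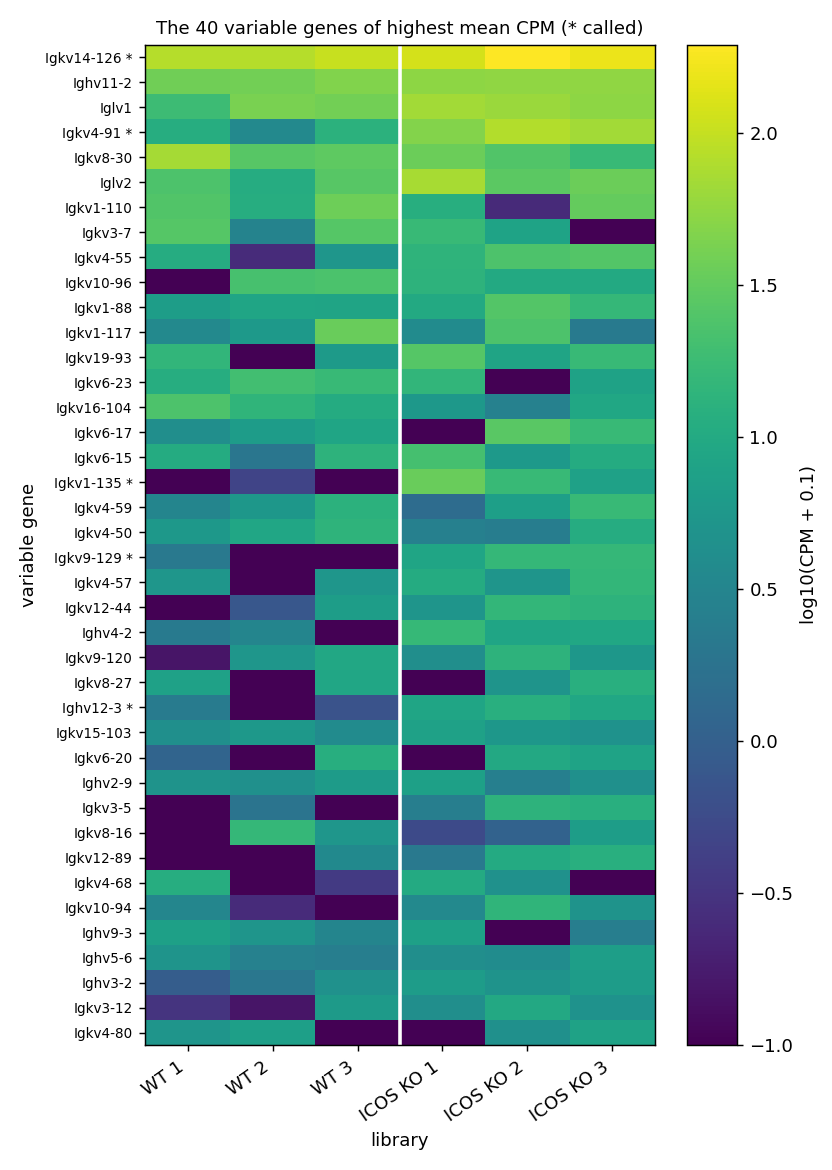
Level of the 40 variable genes with the highest mean CPM (rows) in each library (columns; the white line parts WT from ICOS KO), coloured by log10(CPM + 0.1); an asterisk marks called genes. Igkv14-126 and Ighv11-2 are high in all 6 libraries, while many genes further down are dark, at or near 0 counts, in 1 or more libraries of either genotype.

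Which variable genes were present also differed by library. With presence set at 3 or more counts, 24 of 146 variable genes were present in all 6 libraries, 26 in 5, 26 in 4, 19 in 3, 36 in 2 and 15 in 1. WT libraries held 40, 38 and 41 heavy variable genes and ICOS KO libraries 41, 39 and 44, so the genotypes overlapped. Kappa variable genes numbered 34, 36 and 46 in WT and 47, 48 and 52 in ICOS KO, where the kappa counts behind them were also higher (5604 to 7882 against 8092 to 8773). In ICOS KO alone 22 genes were present and in WT alone 13. Only Ighv1-80, Igkv3-2 and Igkv6-32 were present in all 3 ICOS KO libraries and in no WT library, and only Ighv2-3 and Ighv7-3 in all 3 WT libraries and in no ICOS KO library. Presence was not counted over all genes of the table, so these numbers have no background share and are descriptions only.

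The effective number of variable genes, the inverse of the summed squared shares, was 5.01 to 7.86 for heavy and 8.63 to 15.1 for kappa genes. WT 3 had the highest kappa value and ICOS KO 2 the lowest, at 15.1 and 8.63, and the genotypes overlapped for both chains. Spearman's rho across the 73 heavy variable genes was 0.329 to 0.512 within WT, 0.357 to 0.438 within ICOS KO and 0.201 to 0.489 between genotypes. Across the 70 kappa variable genes it was 0.483 to 0.533, 0.287 to 0.606 and 0.212 to 0.456. These are descriptions across genes of libraries made with the same kit and counted on the same annotation. For heavy genes all 3 ranges overlapped. For kappa genes the range between genotypes lay below that within WT and overlapped that within ICOS KO.

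Families, taken from the name before the first dash, showed a similar picture. In 8 of 35 families the ICOS KO libraries were all higher and in 2 all lower, against 11.9% and 12.5% of all single genes tested. Among the 8 was Igkv4, whose 14 genes summed to 53.7, 26.0 and 81.7 CPM in WT and 108.8, 128.3 and 157.6 CPM in ICOS KO. The 2 lower families were Ighv7 and Igkv16. Igkv5, with 4 genes, summed to at most 3.21 CPM in WT and to 3.68, 8.72 and 11.9 CPM in ICOS KO.

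How far a count can be assigned to a segment depended in part on its copies in the reference annotation. Of the 146 variable genes, 34 had a copy of at least 97% identity among annotated segments over 280 bases, and 25 of these (73.5%) had a count that was not whole. So did 34 of 81 genes (42.0%) with a nearest copy of 90% to under 97%, and 0 of 31 with a nearest copy under 90%. Values of the first 2 sets are uncertain where reads were divided. Igkv14-126, Igkv1-135, Igkv3-2, Igkv9-129 and Ighv2-3 had nearest copies of 90.7%, 96.1%, 93.2%, 92.9% and 95.4% identity and whole counts throughout. Identity and whole counts speak only to segments of that annotation, whose genome build is not from a BALB/c strain. Segment names, pseudogene labels and the printed segment ends are those of the reference strain. Whether they hold for the BALB/c strains of these libraries was not tested.

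Genes of B cells and plasma cells were read beside these values. Of 17 B cell markers, 11 were analysed, 9 were tested and 2 were called, both higher, and their median log2 fold change was 0.0165. Their summed level was 60.8 to 66.1 CPM in WT and 77.6 to 88.0 CPM in ICOS KO. Cd79b, a signalling chain of the B cell receptor, measured 18.6, 21 and 17.6 CPM in WT and 31.3, 25.0 and 39.5 CPM in ICOS KO (edgeR adjusted p = 0.0466), and lost the call without WT 1 (0.184, edgeR), WT 2 (0.120, edgeR), WT 3 (0.108, edgeR) or ICOS KO 3 (0.199, edgeR). Fcmr, an Fc receptor for IgM, measured 7.45, 9.78 and 9.11 CPM in WT and 14.1, 23.7 and 17.0 CPM in ICOS KO (edgeR adjusted p = 0.0241). It lost the call without any WT library (0.0609 to 0.120, edgeR), without ICOS KO 2 (0.0776, edgeR) or without ICOS KO 3 (0.0801, edgeR).

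Cd79a and Ms4a1, which define B cells, were low and overlapped between genotypes. Cd79a, the partner chain of Cd79b, measured 3.62, 3.26 and 3.67 CPM in WT and 4.59, 3.08 and 3.56 CPM in ICOS KO (edgeR adjusted p = 0.897). Ms4a1, which encodes CD20, lay between 0.150 and 1.87 CPM. Blk and Spib were at 0 in all ICOS KO libraries and at or below 0.526 CPM in WT. Pax5, Ebf1, Cr2, Fcer2a, Bank1 and Vpreb3 were not analysed here.

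Of 14 plasma cell markers, 13 were tested, 1 was called higher and 1 lower, and the median log2 fold change was 0.25. Jchain, which joins IgM and IgA into polymers, measured 132.8, 117.6 and 161.1 CPM in WT and 173.8, 177.5 and 167.5 CPM in ICOS KO (edgeR adjusted p = 0.158). Mzb1, a chaperone of immunoglobulin assembly, measured 22.8, 21.4 and 27.0 CPM in WT and 36.8, 34.6 and 30.0 CPM in ICOS KO (edgeR adjusted p = 0.0915). Neither passed, and for both the libraries did not overlap and WT 2 was lowest and WT 3 highest in WT, the order seen for Ighm and Igkc. Creld2, an endoplasmic reticulum protein, measured 297.3, 290.5 and 304.4 CPM in WT and rose to 374.2, 398.9 and 412.0 CPM in ICOS KO (edgeR adjusted p = 0.0239), and Irf4, a transcription factor of plasma cells and other activated lymphocytes, fell from 80.8, 86.9 and 73.6 CPM to 56.7, 44.7 and 46.5 CPM (edgeR adjusted p = 0.0104). Creld2 lost the call without any WT library (0.0523 to 0.163, edgeR) or without ICOS KO 3 (0.127, edgeR), and Irf4 without WT 1 (0.0544, edgeR), WT 2 (0.0799, edgeR) or ICOS KO 3 (0.0673, edgeR). Tnfrsf17, the receptor BCMA, stayed at or below 0.526 CPM. The list summed to 1689 to 1775 CPM in WT and 1782 to 1877 CPM in ICOS KO, most of it from Xbp1, Creld2 and Txndc5. The part of B cell and plasma cell genes in the immunoglobulin values was not tested.

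**Figure D5:**
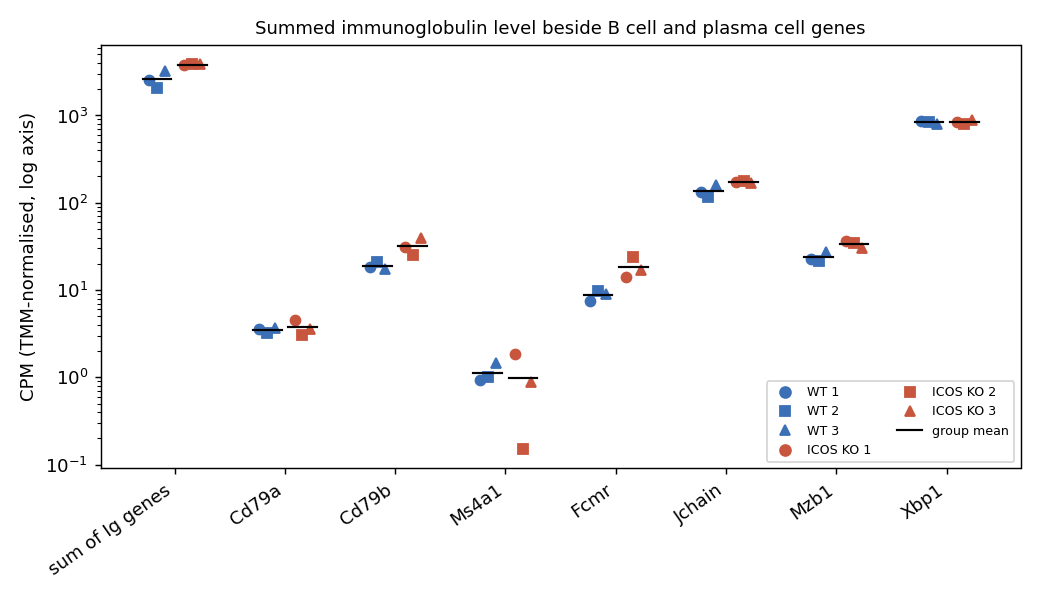
CPM (y axis, log scale) of the summed immunoglobulin genes, 4 B cell genes (Cd79a, Cd79b, Ms4a1, Fcmr) and 3 plasma cell genes (Jchain, Mzb1, Xbp1) in each library, with lines for group means. The sum, Cd79b, Fcmr, Jchain and Mzb1 are higher in every ICOS KO library, while Cd79a, Ms4a1 and Xbp1 overlap.

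Genes of the immunoglobulin pathway were called in both directions, in some lists and not in others. For these and the other gene lists, the shares over all genes tested were 1.29% called higher and 2.01% called lower. Among 15 genes of B cell receptor signalling, 2 were called higher, Cd79b and the adaptor Pik3ap1 (27.4 to 56.6 CPM between means), and 2 lower, the kinase Lyn (51.0 to 35.1 CPM) and the tetraspanin Cd81 (276 to 197 CPM), with a median log2 fold change of -0.11. Lyn lost the call without any library but ICOS KO 1 (0.0896 to 0.225, edgeR), and Cd81 without WT 1 (0.0890, edgeR), WT 2 (0.0851, edgeR) or ICOS KO 3 (0.0660, edgeR). Of 17 tested transcription factors of immunoglobulin loci, Irf4 alone was called. Of 17 genes of V(D)J recombination and class switching none was called by edgeR. Of these, 3 had an unadjusted edgeR p under 0.05, against 2718 of all 13691 genes tested. Rag1, Rag2 and Dntt were among the list genes not analysed here. Igll1 and Vpreb1, parts of the surrogate light chain of B cell precursors, stayed at or below 1.05 and 0.682 CPM. Of 8 tested immunoglobulin receptors Fcmr was called higher and Fcer1a, the IgE-binding chain of the high-affinity IgE receptor, lower.

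Markers of other cells also differed between genotypes. Of 8 tested mast cell and basophil markers 7 were called lower in ICOS KO, with sums of 348 to 403 CPM in WT and 57.7 to 70.4 CPM in ICOS KO. Of 7 tested T cell markers, Trbc1 and Trbc2 were called higher and Cd3e lower, with sums of 248 to 301 CPM in WT and 369 to 471 CPM in ICOS KO. Most of these sums came from Trbc2, Trbc1 and Cd3g (191, 90.9 and 55.7 CPM in the mean over all libraries). Trac and Cd3d had lower means in ICOS KO (0.988 to 0.579 and 1.16 to 0.977 CPM), with overlap. Cd6 had a higher mean (1.285 to 1.536 CPM), also with overlap. Cd4, Cd8a, Cd8b1 and Cd5 were not tested, stayed at or below 0.894 CPM, and had at most 1 count in any ICOS KO library. Of 10 tested macrophage and neutrophil markers Csf1r was called lower, and the sums were 128 to 175 CPM in WT and 71.8 to 113 CPM in ICOS KO. Among 15 ILC2 markers Il1rl1, Areg, Klrg1 and Arg1 were called higher and Rora lower. The part of these other cell type markers in the immunoglobulin values was not tested.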

How the data were processed

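Messenger RNA was measured in 6 libraries, 3 WT and 3 ICOS KO, grouped by their titles. Complementary DNA was made with the SMARTer Ultra Low Input kit, which amplifies by PCR, per the labels' protocols; reads are therefore not independent molecules. In the table the authors deposited, estimated counts stand by gene and library, and 29.7% of them were not whole (tolerance 0.01). Partek 10.0, STAR 2.7.8, DESeq2 and the build mm10 are named by the submitters' processing notes; how reads were annotated, counted and stranded is not given in the sources used here. That build comes from C57BL/6J, while the labels give BALB/c strains.

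Estimated counts were rounded to whole numbers, filtered with filterByExpr, normalised with TMM and compared between genotypes, with no covariate, by edgeR's quasi-likelihood test (version 4.0.16 in R 4.3.3, beside limma 3.58.1). Benjamini-Hochberg adjustment ran over 13691 genes. SE values are those implied by the F statistic. Positions, lengths and sequences come from GENCODE M21 transcripts (GRCm38), matched by symbol for all 155 genes. Identity was counted over the last 280 bases of each variable transcript. Libraries were compared in pairs by a chi-square of counts (at least 8.84 per degree of freedom), and none repeated another. When the comparison of ICOS KO with WT was tested on simulated data (13691 genes), the fit recovered 26% of genes at 1.5-fold, 56% at 2-fold, 88% at 4-fold and 88% at 8-fold, with 11 false calls. The changed genes were drawn from all genes tested, so these shares do not describe the more scattered immunoglobulin genes.

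The members, the 11 gene lists and the tests were chosen with earlier results of these data known. Named genes were every called member, every constant gene, the 3 most abundant variable genes per chain and genotype, called or abundant list genes, and Icos. Ighv1-80, Ighv4-1, Ighv5-4, Ighv7-3, Ighv11-1, Igkv16-104, Igkv6-32, Cd79a, Ms4a1, Blk, Spib, Jchain, Mzb1 and Tnfrsf17 fall outside that rule and were named after their values were seen. The values of some list genes are not reported here. Alternatives were DESeq2 1.42.0 and its size factors, library totals, limma voom, 2 other filters, the replicate number as a block, family sums and each library left out.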

Additional observations from a re-analysis of the deposited data

How the results depend on the processing

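The number of genes called over the whole table was 451 and rose to 929 with DESeq2. It ranged from 193 to 1090 when a library was left out, and was lowest without WT 1 and highest without ICOS KO 1. The count of immunoglobulin genes called higher was 9, between 7 and 11 under other scalings, tools and filters, and 6 to 15 with a library left out (15 without ICOS KO 1). The count called lower was 3, fell to 1 with limma voom and to 1 with variable genes summed by family, and was 3 to 4 with a library left out. The log2 ratio of the summed level was 0.557 and stayed positive in all alternatives run, at 0.492 with library totals, 0.564 with DESeq2 size factors, 0.663 without Ighm, 0.535 for constant genes alone and 0.415 to 0.732 with a library left out.

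With the replicate number as a block, 784 genes were called, 19 immunoglobulin genes were higher and 5 lower, among them Ighm, Iglc2, Iglv1, Iglv2 and Ighv4-2 (higher) and Igkv8-30 (lower). The deviations of same-numbered libraries correlated at 0.0868, 0.0784 and 0.0643, each the best match of its library but under 0.1, so the numbers were not taken as pairs; that is a hint from the data, not from the design.

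Among the tested genes named by the rule above, signs changed only for genes near 0 on the log2 scale that were not called. Changes of sign among the other immunoglobulin genes were not examined. With a library left out, the log2 fold change ranged from -0.468 to 0.418 for Iglc1, from -0.559 to 0.210 for Ighv2-9, from -0.0443 to 0.0409 for Xbp1, from -0.144 to 0.00348 for Txndc5, from -0.163 to 0.0217 for Inpp5d, from -0.0758 to 0.0374 for Ets1, from -0.0775 to 0.0120 for Id2 and from -0.0942 to 0.101 for Kit. Iglc1 (-0.0642) was 0.193 with limma voom and 0.13 with the block. Xbp1 was 0.00273 with DESeq2 size factors and 0.00271 with DESeq2, and Kit was 0.00506 and 0.00525 there and 0.000573 with a 1 CPM filter. The cause was not tested for these changes. Differences under 2-fold were often not detectable with 3 libraries per genotype: the simulated fit recovered 26% of genes at 1.5-fold. The changed genes of that simulation were drawn from all genes tested, whose median biological coefficient of variation was 16.1%. Its recovery does not carry over to the immunoglobulin genes, whose median was 76.0%.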
